A study of Arabidopsis thaliana with 12 samples.

Results

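The plastid genome of *Arabidopsis thaliana* encodes, beside the subunits of the photosynthetic complexes, genes for its own expression and for other tasks. These are the subunits of the plastid RNA polymerase (*rpo*), proteins of the small (*rps*) and large (*rpl*) subunit of the plastid ribosome, the *ycf* genes, and *matK*, *accD*, *clpP*, *ccsA* and *cemA*. On the ATH1 array, a single-colour array on which each transcript is measured by a probe set of short DNA probes, the platform's annotation named a probe set for 32 genes of this kind, and these are described here out of 13358 genes that the annotation names by a single symbol and 22746 probe sets in all, the controls of the array left out. They are 4 *rpo*, 10 *rps*, 9 *rpl* and 4 *ycf* genes and the 5 others. The rule takes genes by their names, so that the set also holds *ycf3* and *ycf4*, which encode assembly factors of photosystem I. Where a gene had more than 1 probe set, as only *rps12* did, the one with the highest mean over all arrays was taken.

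The cells were a habituated, root-derived suspension culture, which grows without added hormones. They were kept shaking in the dark on medium with 87 mM xylose (Xyl) as the only carbon source and subcultured every 7 d. At treatment the cells were 7 d old. They then received 1 mM fructose (Fru), glucose (Glc), sucrose (Suc) or Xyl for 1 h, and the Xyl-treated samples were the control. There were 3 arrays per sugar and 12 in all, numbered 1 to 3 in each group. A single cell line in the dark carried every treatment, so that nothing here covers green tissue or other lines.

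Plastid genes are read by a multi-subunit RNA polymerase of bacterial type, whose core subunits are plastid-encoded, and by phage-type polymerases imported from the cytosol. Plastid ribosomes are likewise mosaics, since the plastid encodes only some of their proteins and the nucleus the others. Plastids of non-green cells still need this machinery, because they make fatty acids, amino acids and other metabolites. Many plastid genes are transcribed together, as in the cluster that begins with *rpl23* and ends with *rpoA*. Labelling in these samples started from the poly(A) tail of RNA, and most plastid RNAs lack a stable tail, so that the amount of a plastid transcript and the share of it that carries a tail cannot be told apart in these values. Nor can fewer plastids be told apart from less RNA per plastid, because each array measured the RNA of a whole culture sample. The values were normalized between arrays, so that they are relative to the other RNA of a sample and not amounts per cell.

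Values are log2 RMA values, on which a difference of 1 is a doubling. The median of all probe sets lay between 4.70 and 4.84 on the 12 arrays. The means of the 32 genes over the 12 arrays ran from 2.67 to 9.97, with 21 genes at 5 or more and 11 below. Because probe sets bind with different strength, these levels do not rank the genes against each other. Among the polymerase genes the mean was 8.05 for *rpoA* (the α subunit), 2.67 for *rpoB* (β), 5.91 for *rpoC1* (β′) and 4.27 for *rpoC2* (β″). Among the genes of the small ribosomal subunit it was 3.83 for *rps2*, 7.68 for *rps3*, 8.71 for *rps4*, 8.46 for *rps7*, 5.95 for *rps12*, 2.89 for *rps14*, 4.49 for *rps15*, 2.98 for *rps16*, 6.10 for *rps18* and 7.96 for *rps19*. For the large subunit it was 9.57 for *rpl2*, 6.42 for *rpl14*, 5.60 for *rpl16*, 4.71 for *rpl20*, 6.37 for *rpl22*, 5.91 for *rpl23*, 9.97 for *rpl32*, 5.44 for *rpl33* and 5.40 for *rpl36*. The *ycf* genes had means of 6.01 for *ycf1* and 3.07 for *ycf2*, which encode parts of the protein import machinery of the inner envelope, and 5.04 for *ycf3* and 3.93 for *ycf4*, which encode assembly factors of photosystem I. The others had means of 7.41 for *matK* (an intron maturase), 4.43 for *accD* (a subunit of acetyl-CoA carboxylase, which starts fatty acid synthesis), 9.79 for *clpP* (a proteolytic subunit of the Clp protease), 7.86 for *ccsA* (attachment of haem to *c*-type cytochromes) and 3.51 for *cemA* (an envelope membrane protein). The probe sets of *rpl2*, *rpl23*, *rps7*, *ycf1*, *ycf2* and *rps12* each match 2 gene entries of the same symbol, so that copies are measured together.

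The highest and lowest levels show what the scale spans. *rpl32* stood at 9.99, 10.23 and 9.61 with Fru, 10.00, 9.59 and 9.62 with Glc and 10.15, 9.92 and 10.65 with Suc, against 9.88, 9.58 and 10.39 with Xyl, and *clpP* at 9.64, 9.67 and 9.24 with Fru, 9.92, 9.54 and 11.04 with Glc and 9.47, 9.09 and 9.82 with Suc, against 9.90, 9.70 and 10.41 with Xyl. At the other end, *rpoB* stood at 2.57, 2.64 and 2.49 with Fru, 2.71, 2.87 and 2.87 with Glc and 2.60, 2.50 and 2.54 with Suc, against 2.89, 2.55 and 2.82 with Xyl, and *rps14* at 2.91, 3.08 and 2.81 with Fru, 2.91, 3.24 and 2.76 with Glc and 2.69, 2.80 and 2.70 with Suc, against 2.83, 2.89 and 3.02 with Xyl. For both dim genes all 12 arrays lay within a span of less than 1.

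The controls of the arrays also differed between arrays. The 12 poly(A) spike-in probe sets, RNAs added in the labelling, averaged 7.19, 7.00, 7.27 and 6.61 with Fru, Glc, Suc and Xyl. Within replicates they were 0.96, 0.43 and 0.60 higher on the Suc than on the Xyl arrays of replicates 1, 2 and 3, and the Fru values were 1.10, 0.60 and 0.04 higher. The Glc values differed from Xyl by 1.33, 0.75 and −0.91. The 25S rRNA probe set ran from 12.51 to 13.11, and the 3′ minus 5′ difference of actin, a sign of RNA length, from 1.94 to 2.76, with the highest value on the third Glc array. Of the markers of green leaf cells, dividing cells and xylem set out for a check of the culture, 1 had a named probe set. This was *RCA*, Rubisco activase, at 6.18 to 7.69 over the arrays, and a difference of −0.21 ± 0.46 with Suc against Xyl did not pass the test. The other markers were not analysed here.

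With Suc, 31 of the 32 genes had a lower mean than with Xyl, and the median log2 change was −0.61, where that of all probe sets was 0.00. Genes of every role were among them, and the largest changes were those of *rps7*, *rps12* and *rpl16*, which stood at ranks 1, 2 and 3 from the lowest change among all 22746 probe sets. At the unadjusted threshold of p under 0.002 used in the study's methods, *rps7* and *ycf3* fell in limma, 2 of the 32 genes, where 0.0659% of all probe sets passed downwards. In a fit that takes the replicate number as a block, 8 of the 32 genes passed, all downwards (0.778% of all probe sets), namely *rps4*, *rps7*, *rps19*, *rpl20*, *rpoC2*, *ycf1*, *ycf3* and *cemA*. After Benjamini-Hochberg adjustment none of the 32 stayed under 0.05 in limma, and of all 22746 probe sets 0 did (4 with the block). At an unadjusted p under 0.05 there were 15 of the 32, against 1.38% of all probe sets downwards. With the block there were 20 of the 32, against 2443 of the 22746 probe sets in either direction. By the methods' t-test 7 passed p under 0.002 and 0 after adjustment, and the share of all probe sets was not counted for it. The lowest adjusted p was that of *ycf3* with the block (0.094).

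**Figure D1:**
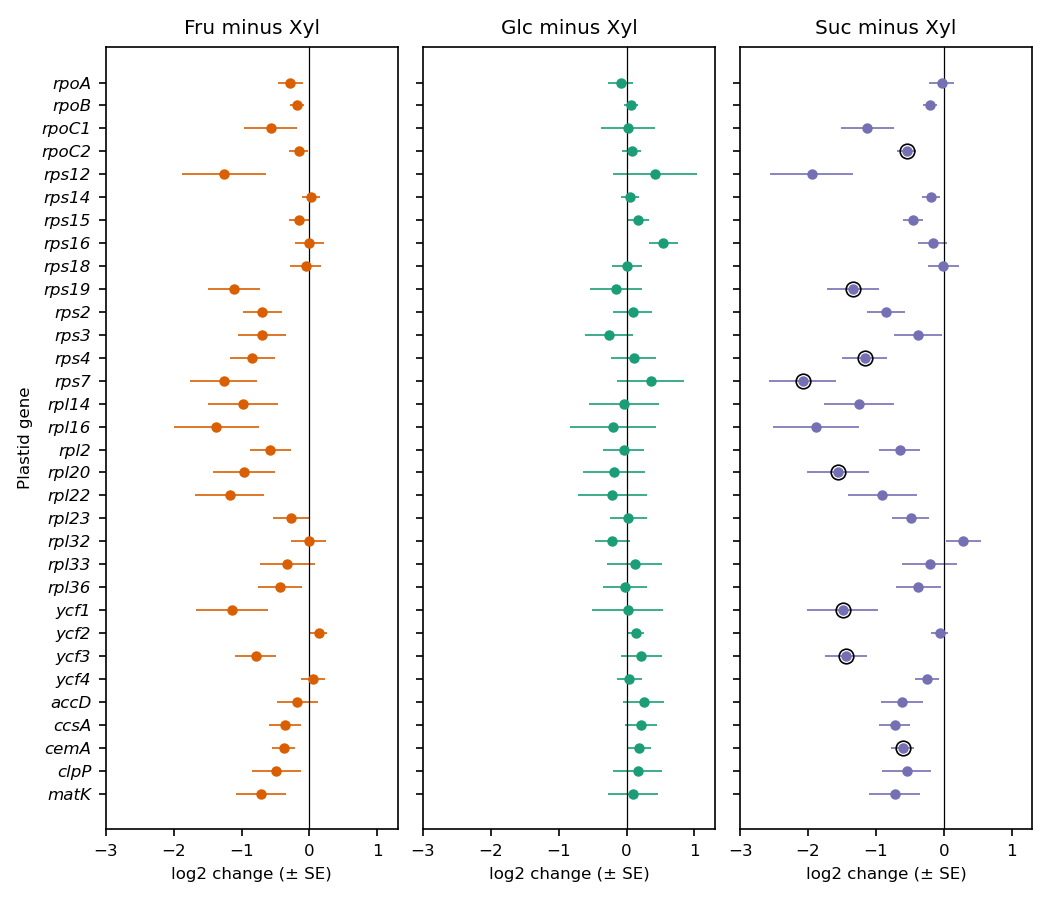
Log2 change of the 32 plastid genes with Fru, Glc and Suc against Xyl, each point 1 gene with its standard error from limma without the block (n = 3 arrays per sugar); black rings mark p under 0.002 in the fit blocked by replicate number. The 8 rings all lie in the Suc panel, the Glc points lie around 0, and *rpl32* is the only gene above 0 with Suc.

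*rps7* encodes a small-subunit protein that in bacteria binds rRNA early in ribosome assembly. It stood at 7.77, 9.23 and 6.84 with Fru, 9.51, 9.26 and 9.93 with Glc and 7.25, 7.19 and 6.96 with Suc, against 9.26, 8.75 and 9.61 with Xyl. All 3 Suc arrays lay below all Xyl and Glc arrays, and the Fru arrays ran from below the Suc arrays to inside the Xyl range. The change with Suc was −2.08 ± 0.49, a 4.22-fold lower level, with an adjusted p = 0.129 in the block fit. *rps12*, a gene for a protein at the decoding site of the ribosome whose transcript is joined from separate pieces, stood at 5.44, 6.84 and 3.88 with Fru, 7.10, 6.50 and 7.58 with Glc and 5.03, 4.56 and 4.50 with Suc, against 6.87, 6.11 and 6.96 with Xyl. Its Suc arrays did not reach the Xyl arrays either, and its change was −1.95 ± 0.62, which did not pass in either fit.

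The other small-subunit genes that passed were *rps4* and *rps19*. *rps4*, whose bacterial counterpart is likewise an early rRNA-binding protein, stood at 8.43, 9.13 and 7.48 with Fru, 9.36, 9.13 and 9.40 with Glc and 8.12, 8.19 and 7.76 with Suc, against 9.03, 9.20 and 9.33 with Xyl, a change of −1.17 ± 0.33 with an adjusted p = 0.148 in the block fit. *rps19*, which follows *rpl23* and *rpl2* in their cluster, stood at 7.89, 8.06 and 6.54 with Fru, 8.40, 7.96 and 9.01 with Glc and 7.35, 7.29 and 7.17 with Suc, against 8.36, 8.55 and 8.91 with Xyl, a change of −1.34 ± 0.38 with an adjusted p = 0.181 in the block fit. In both genes the Suc arrays were apart from the Xyl arrays, and the lowest value of all was that of the third Fru array. *rps18* was the member closest to no change. It stood at 6.33, 6.42 and 5.44 with Fru, 6.10, 6.17 and 6.09 with Glc and 6.16, 6.03 and 6.16 with Suc, against 6.23, 6.20 and 5.93 with Xyl, and the Suc and Xyl arrays overlapped (0.00 ± 0.22). Over the 10 small-subunit genes the median change with Suc was −0.65, and 7 had Suc and Xyl arrays that did not overlap.

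Among the 9 genes of the large subunit, 8 were lower with Suc, with a median change of −0.65, and 5 did not overlap. *rpl20*, listed next to *rps12* in the gene order used here, stood at 4.23, 5.44 and 3.60 with Fru, 5.18, 4.83 and 5.59 with Glc and 4.05, 4.01 and 3.43 with Suc, against 5.11, 4.95 and 6.10 with Xyl. All Suc arrays were below all Xyl arrays, and the change was −1.56 ± 0.46 with an adjusted p = 0.185 in the block fit. *rpl16* stood at 5.33, 6.43 and 3.53 with Fru, 5.64, 6.07 and 7.10 with Glc and 4.94, 4.72 and 4.09 with Suc, against 6.48, 6.36 and 6.56 with Xyl. Its change with Suc was −1.88 ± 0.63, which did not pass in either fit, and the Fru arrays spanned the range from above the Suc arrays to below them. *rpl32* was the 1 gene with a higher mean, at 10.15, 9.92 and 10.65 with Suc, against 9.88, 9.58 and 10.39 with Xyl (0.29 ± 0.26), and the groups overlapped. It was higher in all 3 replicates, by a difference that did not pass the test.

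The polymerase genes differed among themselves. *rpoB*, *rpoC1* and *rpoC2* lie next to each other in that order, followed by *rps2*, and changed with Suc by −0.21, −1.12, −0.54 and −0.85. *rpoC2* stood at 4.25, 4.44 and 4.11 with Fru, 4.57, 4.48 and 4.43 with Glc and 4.15, 3.84 and 3.66 with Suc, against 4.39, 4.32 and 4.56 with Xyl. The Suc arrays lay below the Xyl arrays by a small margin, and the change of −0.54 ± 0.14 passed with the block (adjusted p = 0.155). *rpoC1* stood at 5.66, 6.81 and 4.82 with Fru, 6.01, 6.45 and 6.59 with Glc and 5.33, 5.19 and 5.10 with Suc, against 6.34, 6.26 and 6.40 with Xyl, with a change of −1.12 ± 0.39 that did not pass in either fit (adjusted p = 0.203 with the block). *rpoA*, which closes the ribosomal protein cluster, stood at 8.10, 7.64 and 7.88 with Fru, 8.08, 7.72 and 8.40 with Glc and 8.31, 7.99 and 8.08 with Suc, against 7.99, 8.24 and 8.23 with Xyl, and its Suc and Xyl arrays overlapped (−0.03 ± 0.18).

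Of the *ycf* genes, both of the 2 with a mean of at least 5 passed with the block. *ycf3* stood at 4.87, 5.38 and 4.02 with Fru, 5.86, 5.46 and 5.97 with Glc and 4.28, 4.16 and 3.87 with Suc, against 5.49, 5.31 and 5.84 with Xyl. The highest Suc value was more than 1 below the lowest Xyl value, and the change was −1.44 ± 0.31, with an adjusted p = 0.0941 in the block fit. *ycf1* stood at 5.95, 6.55 and 4.07 with Fru, 6.60, 6.59 and 6.85 with Glc and 5.55, 5.42 and 4.55 with Suc, against 6.66, 6.87 and 6.47 with Xyl, a change of −1.49 ± 0.53 with an adjusted p = 0.165 in the block fit. The third Suc array was the lowest of the Suc arrays for both genes. Their dimmer relatives *ycf2* and *ycf4* changed by −0.06 and −0.25, and neither passed.

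All 5 of the remaining genes had a lower mean with Suc, with changes of −0.54 to −0.73, and 4 of them did not overlap with Xyl. *cemA* stood at 3.23, 3.59 and 3.18 with Fru, 4.14, 3.54 and 4.002 with Glc and 3.06, 3.19 and 3.05 with Suc, against 3.91, 3.60 and 3.63 with Xyl, a change of −0.61 ± 0.17 with an adjusted p = 0.181 in the block fit. This is a dim probe set, and its 3 Suc values were closer together than those of any other sugar. *accD*, *ccsA*, *matK* and *clpP* changed by −0.62, −0.72, −0.73 and −0.54, and none passed with or without the block.

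**Figure D2:**
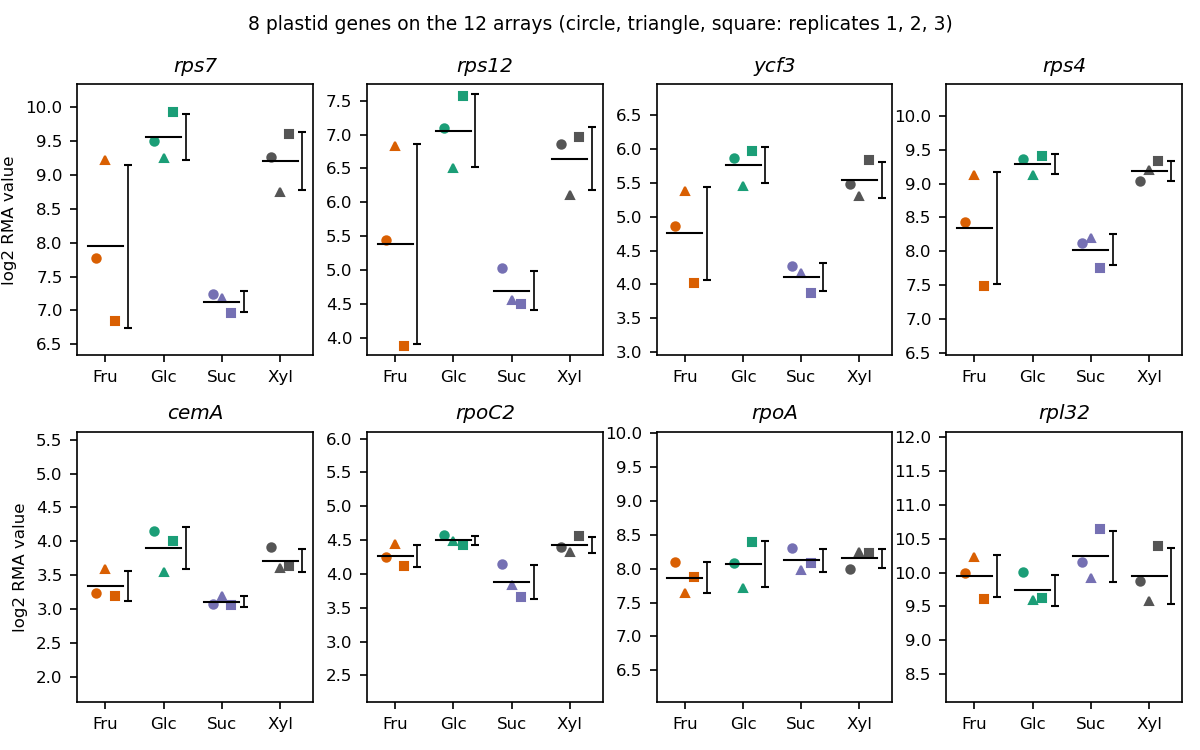
Log2 RMA values of 8 plastid genes on the 12 arrays, with circles, triangles and squares for replicates 1, 2 and 3, a line for the mean and a bar for ± 1 SD (n = 3), each panel spanning 4 units. In *rps7*, *rps12*, *ycf3*, *rps4*, *cemA* and *rpoC2* the Suc arrays lie below the Xyl arrays, while in *rpoA* and *rpl32* they overlap.

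Counted by array, 20 of the 32 genes had all 3 Suc arrays below all 3 Xyl arrays, against 3.26% of all probe sets, and none had them all above. Within replicates, 26 of 32 were lower with Suc in all 3, against 19.4% of all probe sets. The median difference from the Xyl array of the same replicate was −0.50, −0.60 and −0.78 in replicates 1, 2 and 3. The 21 genes with a mean of at least 5 had a median change of −0.73 and the 11 dimmer genes one of −0.45. The count of calls moved with single arrays: it was 0 without Suc replicate 2, Suc replicate 3 or Xyl replicate 3, 1 without Fru replicate 1, Glc replicate 1, Glc replicate 3, Suc replicate 1, Xyl replicate 1 or Xyl replicate 2, and 6 and 7 without Fru replicates 2 and 3, which enter the shared estimate of the spread. The share of all probe sets called was not counted for these fits, so their counts do not show that the members stand out. The median change stayed between −0.69 and −0.57 over these fits.

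**Figure D3:**
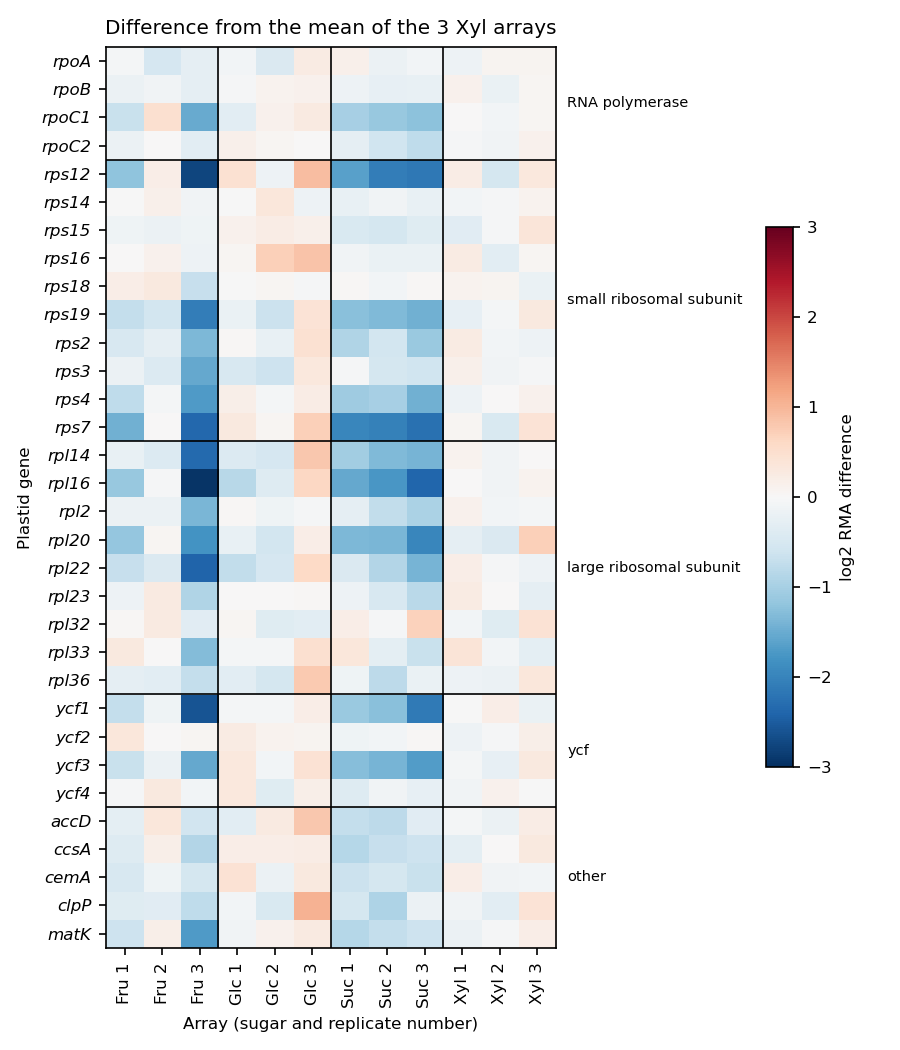
Difference of each of the 12 arrays (columns) from the mean of the 3 Xyl arrays for the 32 plastid genes (rows, by role), in log2 units, with blue for lower and red for higher. The 3 Suc columns are blue for most genes, Fru 3 is the darkest column, and Fru 2 and the Glc columns are pale.

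With Fru, 29 of the 32 genes had a lower mean than with Xyl, with a median change of −0.46, but the 3 Fru arrays differed widely. In limma 0 of the 32 passed p under 0.002, without or with the block (0.044% and 0.664% of all probe sets downwards), and 0 passed by the methods' t-test. At p under 0.05 there were 6, against 1.14% of all probe sets downwards. With the block there were 15, against 2689 of all 22746 probe sets in either direction. For 9 of the 32 the Fru arrays did not overlap with the Xyl arrays, against 2.63% of all probe sets. The median difference from the Xyl array of the same replicate was −0.32 in replicate 1 and 0.08 in replicate 2, where 13 of the 32 were lower. In replicate 3 it was −1.17, with all 32 genes lower and differences from −3.08 to −0.07. Without Fru replicate 3 the median change was −0.25, and without Fru replicate 2 it was −0.59. Without Fru replicate 2 the count of calls was 3, for which the share of all probe sets was not counted. The SD over the 3 Fru arrays had a median of 0.58 over the genes, against 0.20 over the Xyl arrays.

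*rpl16* had the lowest change in mean of all 22746 probe sets with Fru, −1.37 ± 0.63, and the third Fru array, at 3.53, was the lowest of the 12 arrays. *rps7* followed (−1.26 ± 0.49), with its second array inside the Xyl range. At the upper end, *ycf2* stood at 3.35, 3.03 and 3.07 with Fru, 3.26, 3.11 and 3.09 with Glc and 2.88, 2.93 and 3.05 with Suc, against 2.86, 2.99 and 3.20 with Xyl, and *ycf4* at 3.93, 4.25 and 3.88 with Fru, 4.28, 3.60 and 4.14 with Glc and 3.59, 3.85 and 3.71 with Suc, against 3.85, 4.10 and 3.95 with Xyl. They differed from Xyl by 0.13 ± 0.12 and 0.05 ± 0.18, and the arrays overlapped in both. The spike-ins were 0.04 higher on the third Fru array than on its Xyl partner, and the 3′ minus 5′ difference of actin 0.01 higher. Between the same arrays the hybridization controls differed by 0.19 and the 25S rRNA probe set by −0.16. The 3′ minus 5′ differences of GAPDH and ubiquitin differed by −0.15 and −0.06.

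With Glc the same genes had a median change of 0.06, and 10 of 32 had a lower mean. In limma 0 passed p under 0.002 in either fit (0.044% of all probe sets in either direction without the block, 1.24% with it), and 0 passed by the methods' t-test. At an unadjusted p under 0.05 there was 1 with and without the block. Of all probe sets 2.11% were under it without the block, and 2679 of 22746 with it. That 1 was *rps16*, which stood at 2.90, 3.02 and 2.72 with Fru, 2.94, 3.59 and 3.75 with Glc and 2.78, 2.69 and 2.69 with Suc, against 3.14, 2.56 and 2.95 with Xyl, a change of 0.54 ± 0.21 from a dim probe set with 2 of the 3 Glc arrays above all Xyl arrays. Without Glc replicate 1 it passed, and the count of calls was 1, without a count over all probe sets. *rps12*, with the values above, had the next highest change in mean (0.41 ± 0.62). The lowest changes were those of *rps3* (−0.26 ± 0.35), which stood at 7.83, 7.61 and 6.49 with Fru, 7.52, 7.40 and 8.34 with Glc and 7.99, 7.48 and 7.42 with Suc, against 8.16, 7.90 and 7.98 with Xyl, and of *rpl32* (−0.21 ± 0.26). For none of the 32 did the Glc and Xyl arrays stand apart, where 2.59% of all probe sets lay lower and 3.68% higher. Within replicates the medians were 0.03, −0.02 and 0.19.

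Suc and Glc, a disaccharide of glucose and fructose and one of its component hexoses, were given at the same dose and time, and their difference was tested directly. The median difference of Suc from Glc was −0.71, and 30 of the 32 genes were lower with Suc. In limma 4 passed p under 0.002, *rps7*, *ycf3*, *cemA* and *rpoC2* (0.0572% of all probe sets downwards), and 10 passed with the block (0.365%), which added *rps2*, *rps4*, *rps12*, *rps15*, *ycf1* and *ccsA*. The adjusted p was 0.123 or more for every member in either fit, and of all probe sets 0 were under 0.05 without the block and 1 with it. At an unadjusted p under 0.05 there were 18 members, against 1.06% of all probe sets downwards. With the block there were 24, against 1746 of all 22746 probe sets in either direction. By the methods' t-test 5 passed p under 0.002 and 0 after adjustment, without a count over all probe sets. For 22 of the 32 the Suc arrays lay below the Glc arrays, against 3.18% of all probe sets. The differences were −2.44 ± 0.49 for *rps7*, −1.66 ± 0.31 for *ycf3*, −0.79 ± 0.17 for *cemA* and −0.62 ± 0.14 for *rpoC2*. With the block, *rps12* differed by −2.36 (adjusted p = 0.195), *rps4* by −1.27 (adjusted p = 0.158) and *ycf1* by −1.51 (adjusted p = 0.238).

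Of the 10 genes, 3 remain to be shown array by array. *ccsA* stood at 7.70, 8.25 and 7.21 with Fru, 8.28, 8.28 and 8.30 with Glc and 7.22, 7.40 and 7.45 with Suc, against 7.78, 8.09 and 8.37 with Xyl, and *rps15* at 4.46, 4.41 and 4.47 with Fru, 4.73, 4.82 and 4.76 with Glc and 4.15, 4.06 and 4.23 with Suc, against 4.26, 4.56 and 4.97 with Xyl. In both, the Glc arrays lay within 0.1 of each other and all Suc arrays lay below them. *rps2* stood at 3.72, 3.93 and 2.85 with Fru, 4.22, 3.97 and 4.64 with Glc and 3.29, 3.65 and 3.08 with Suc, against 4.43, 4.11 and 4.04 with Xyl, with the third Fru array the lowest of the 12. Suc differed from Glc by −0.93 ± 0.23 in *ccsA*, −0.62 ± 0.15 in *rps15* and −0.94 ± 0.28 in *rps2*. The count of calls was 1 without Suc replicate 2, Suc replicate 3 or Glc replicate 3, 2 without Suc replicate 1 or Glc replicate 1, and 8 and 10 without Fru replicates 2 and 3. For these fits, too, the share of all probe sets was not counted.

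For the other 2 pairs of sugars, 0 members passed p under 0.002 in limma with or without the block. The shares of all probe sets past it downwards were 0.00879% for Fru against Glc (0.273% with the block) and 0.0044% for Suc against Fru (0.229% with the block). Fru against Glc had a median of −0.55, 30 genes lower, and 8 without overlap against 2.3% of all probe sets. It had 10 genes at p under 0.05, against 0.791% of all probe sets downwards. With the block it had 17, against 2040 of all 22746 probe sets in either direction. There, 1 member passed by the methods' t-test, for which the share of all probe sets was not counted. The largest difference was that of *rps12* (−1.67), and without Fru replicate 2 the count of calls in limma was 6, again without a share of all probe sets. Suc against Fru had a median of −0.22, 25 genes lower, 0 passing by the methods' t-test, and 3 without overlap against 3.44% of all probe sets. It had 1 gene at p under 0.05, against 1.01% of all probe sets downwards. With the block it had 3, against 2578 of all 22746 probe sets in either direction. Its largest difference was that of *rps7* (−0.82 ± 0.49). Since the Fru arrays spread widely, these values do not show that the effects of Suc and Fru on the genes are alike. The 6 comparisons share arrays, and their values are not independent of each other.

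Along the plastid genome, neighbours differed. In the cluster that runs *rpl23*, *rpl2*, *rps19*, *rpl22*, *rps3*, *rpl16*, *rpl14*, *rpl36* and *rpoA*, the change with Suc was −0.49, −0.65, −1.34, −0.90, −0.38, −1.88, −1.25, −0.37 and −0.03 in that order. With Fru the same genes changed by −0.27, −0.57, −1.11, −1.18, −0.70, −1.37, −0.98, −0.43 and −0.28. Of the cluster, *rps19* passed with the block in Suc, and *rpl16* and *rpl14*, with the largest changes beside it, did not. *rpl22* stood apart from Xyl with both sugars, with 6.52, 6.06 and 5.55 with Suc and 6.26, 6.50 and 4.54 with Fru, against 7.14, 6.90 and 6.79 with Xyl. *rpl14* did so as well, with 5.95, 5.67 and 5.59 with Suc and 6.77, 6.59 and 4.66 with Fru, against 7.08, 6.88 and 7.00 with Xyl. *rpl2* lay at 9.63, 9.15 and 8.94 with Suc, against 10.02, 9.81 and 9.83 with Xyl. In the gene order used here, *rpl33*, *rps18*, *rpl20*, *rps12* and *clpP* follow each other. The first pair changed with Suc by −0.21 and 0.00, and the next 3 by −1.56, −1.95 and −0.54. The order gives each gene 1 place, while the transcript of *rps12* is joined from separate pieces. Which piece its probe set measures was not checked, so *rps12* cannot be set firmly against these neighbours.

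**Figure D4:**
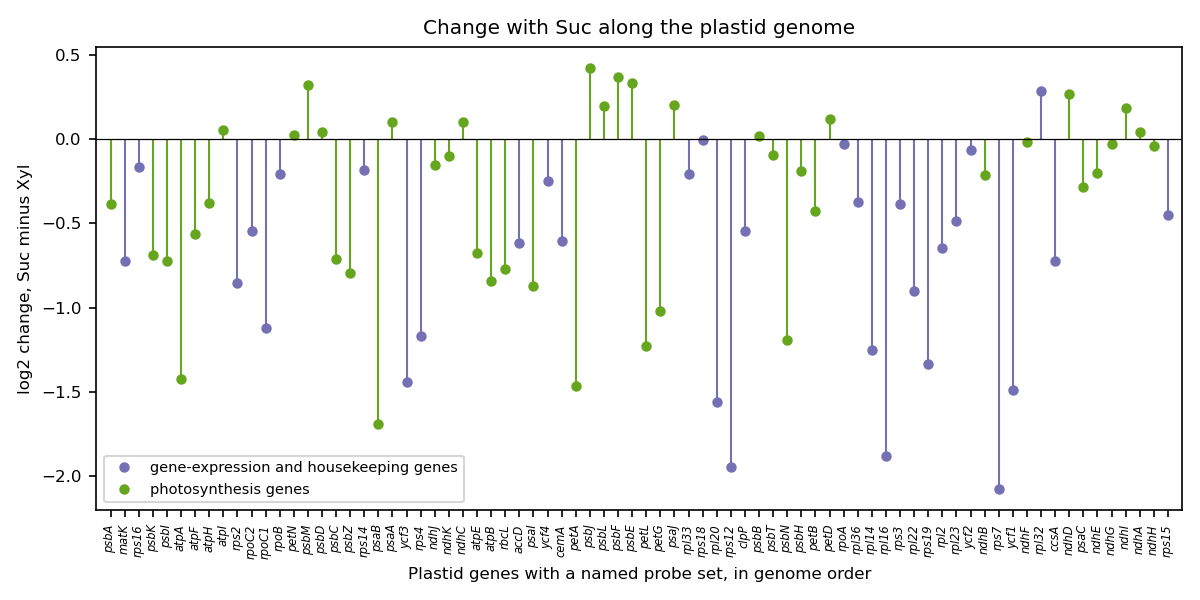
Log2 change with Suc against Xyl (1 fit over 12 arrays) for the 76 plastid genes with a named probe set, in their order on the plastid genome, with the 32 gene-expression and housekeeping genes in purple and the 44 photosynthesis genes in green. The longest stems belong to *rps7*, *rps12* and *rpl16*, and the longest green stem, that of *psaB*, reaches −1.69.

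Beside the median change with Suc of −0.61 over the 32 genes, the 44 plastid genes for photosynthesis had one of −0.17, with 1 called in limma (5 with the block) and 19 without overlap below Xyl. The difference between the medians of the 2 groups was not tested. Over genes with a mean of at least 5 the median change with Suc was −0.73 for the 21 gene-expression and housekeeping genes and −0.68 for the 20 photosynthesis genes, where that of all probe sets at this level was −0.01. With Fru it was −0.70 for the 21 genes and −0.37 for the 20, and with Glc 0.02 for the 21 genes and 0.09 for the 20. The 16 mitochondrial genes, RNAs of the other organelle genome that also mostly lack stable tails, had medians of 0.01, 0.13 and −0.15 with Fru, Glc and Suc, and 0 passed p under 0.002 with any of the 3 in limma (1 with the block with Suc, 2 at p under 0.05).

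**Figure D5:**
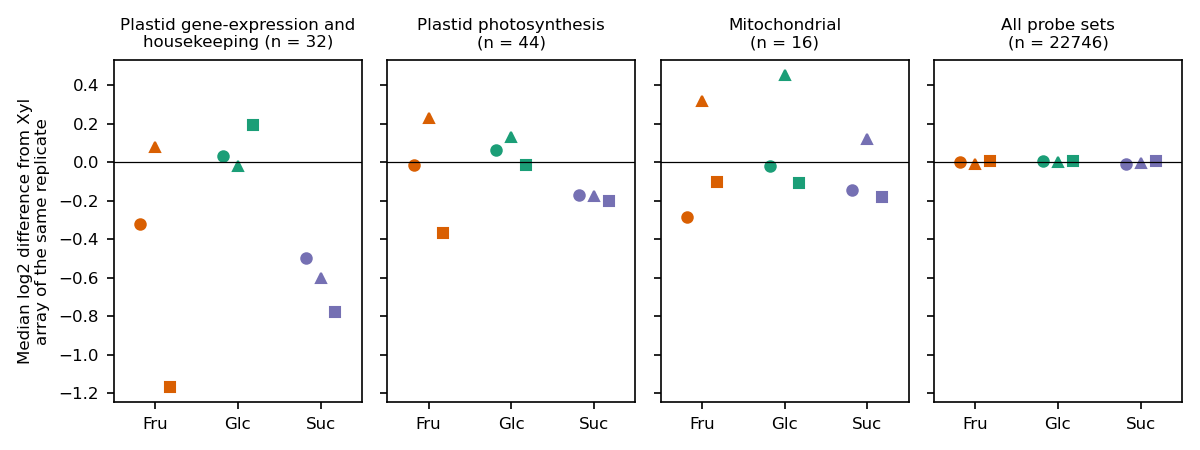
Median log2 difference of each sugar array from the Xyl array of the same replicate, for the 32 genes, the 44 plastid photosynthesis genes, the 16 mitochondrial genes and all 22746 probe sets; circles, triangles and squares are replicates 1, 2 and 3. The 3 Suc points of the 32 genes lie between −0.50 and −0.78, their Fru points between −1.17 and 0.08, and the points of all probe sets at 0.

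The listed nucleus-encoded partners of these genes that had a named probe set did not pass p under 0.002 with any sugar. Of the nuclear genes for plastid ribosomal proteins, 7 had a named probe set, and their median change with Suc was −0.08 (from −0.24 to 0.10), with 0 past p under 0.002 in limma with or without the block and 0 at p under 0.05 (1 with the block). With Fru their median was −0.11 and with Glc −0.13, again with 0 past p under 0.002 in both fits and 0 at p under 0.05 without the block. With the block, 0 had p under 0.05 with Fru and 1 with Glc. *RPOTMP*, a phage-type RNA polymerase of mitochondria and plastids, differed from Xyl by 0.06, 0.07 and 0.05 with Fru, Glc and Suc. The 2 named nuclear genes of the plastid Clp protease, *CLPP4* and *CLPR3*, differed with Suc by 0.06 and −0.06. *CCDA* and *CCS1*, which act with *ccsA* in cytochrome maturation, differed by −0.06 and 0.07. Sigma factors, proteins associated with the plastid polymerase and nuclear subunits of acetyl-CoA carboxylase had no named probe set and were not analysed here.

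Replicates differed from each other at many probe sets of the array. With sugar as a factor, 3 of the 32 were lower and 1 higher in replicate 3 than in replicates 1 and 2 at an adjusted p under 0.05 in limma, where 24.4% of all probe sets were lower and 23.5% higher. The median difference was −0.15. *rpl23*, *ycf1* and *rpl2* were the lower ones, with differences of −0.45, −0.79 and −0.43 (adjusted p = 0.0123, 0.0261 and 0.0299), and *clpP* was higher by 0.51 (adjusted p = 0.0356). *rpl23* stood at 5.94, 6.35 and 5.18 with Fru, 6.11, 6.10 and 6.14 with Glc and 5.93, 5.61 and 5.28 with Suc, against 6.34, 6.11 and 5.82 with Xyl, and *rpl33*, with a difference of −0.52 that missed the threshold (adjusted p = 0.0618), at 5.84, 5.55 and 4.24 with Fru, 5.48, 5.48 and 6.01 with Glc and 5.88, 5.25 and 4.87 with Suc, against 5.92, 5.46 and 5.24 with Xyl. In both genes the third Fru array was the lowest, and without Fru replicate 3 the median difference was 0.15. The largest positive differences after *clpP* were those of *rpl36*, by 0.38, and *accD*, by 0.24, which did not pass. *rpl36* stood at 5.34, 5.29 and 4.90 with Fru, 5.30, 5.07 and 6.39 with Glc and 5.47, 4.82 and 5.40 with Suc, against 5.45, 5.43 and 5.94 with Xyl, and *accD* at 4.27, 4.91 and 3.98 with Fru, 4.24, 4.82 and 5.38 with Glc and 3.85, 3.78 and 4.21 with Suc, against 4.51, 4.38 and 4.79 with Xyl. In these 2 genes and in *clpP* the third Glc array was the highest of the 12. The count of calls was 2 without Fru replicate 1, Suc replicate 1 or Suc replicate 3 and 10 without Glc replicate 3, and it was 3 or 4 without any other array. Shares of all probe sets were not counted for these fits. The sources used here do not say what the arrays of a replicate number share. In the comparisons between replicate numbers, the arrays of a number, from the different sugars, served as its repeats. Their p-values therefore cover the spread between arrays within a number, and not that between cultures.

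Replicate 1 differed from replicate 2 by a median of 0.04, and 0 of the 32 genes had an adjusted p under 0.05 in limma (lowest adjusted p = 0.224; 0 at an unadjusted p under 0.05), where 14.9% of all probe sets were lower and 12.9% higher. The lowest differences were those of *rpoC1* (−0.35), *matK* (−0.33) and *rpl16* (−0.30), and the highest those of *rpl33* (0.35), *rps3* (0.28) and *rpl36* (0.24). *matK* stood at 7.12, 7.92 and 6.04 with Fru, 7.64, 7.86 and 8.01 with Glc and 6.89, 7.03 and 7.13 with Suc, against 7.56, 7.72 and 7.95 with Xyl. In *rpoC1*, *matK* and *rpl16* the second Fru array was well above the first, and without it the 3 differences were 0.04, 0.00 and 0.22. Of the 16 mitochondrial genes, 13 were higher in replicate 3 than in replicates 1 and 2 at an adjusted p under 0.05.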

How the data were processed

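Affymetrix ATH1 arrays measured RNA of 12 samples, 3 for each sugar, from an *A. thaliana* cell culture kept on Xyl. The deposited values are log2 RMA values of 22810 probe sets, for which the authors corrected the background, normalized by quantiles between arrays and summarised the probes. Per the submitters' processing notes, the tools were Affymetrix Expression Console, RMA and limma, with no versions. A second table held the same values with the authors' 6 comparisons as log2 fold changes, p-values and log odds, and its comparisons were not used.

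The 64 control probe sets were left out of the tests. Plastid genes were taken from the platform's annotation (13523 probe sets with 1 gene symbol, 493 with several, 8794 unlisted) and ordered along the plastid genome by RefSeq's gene table (TAIR10.1). No build is named for the arrays, and coordinates are left out. R 4.3.3 with limma 3.58.1 fitted the 4 sugars together over all 22746 probe sets, without a block (8 residual degrees of freedom). Calls were made at the unadjusted p under 0.002 of the methods, and also after Benjamini-Hochberg adjustment at 0.05. Standard errors (±) are those of this fit. The script was tested on simulated data.

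The methods tell of cells divided between flasks before treatment, but not whether same-numbered arrays came from a single division. After removal of group means, same-numbered arrays correlated over all probe sets with r from 0.772 to 0.938 in 18 pairs, and over the 32 genes alone with r from −0.46 to 0.63 (median 0.17). On the correlation over all probe sets the numbers were taken to pair the arrays. Values of a blocked fit (6 residual degrees of freedom) are therefore given where they change a call or a count. The methods call the replicates biological without saying what separates them, and p-values measure the spread between these samples.

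The genes and lists were chosen with earlier results of these data known. Every member was named once with its level. Values per array were given for members past 0.002 in either fit between sugars, for the 2 highest and 2 lowest changes in each sugar, for the 2 highest and 2 lowest levels and for the 3 largest differences in each direction between replicates, and *rpoA*, *rpl2*, *rpl14* and *rpl22* were added after their values were seen. Alternatives were the block, fixed or random, the methods' t-test, the linear scale, fits of the 6 arrays compared, array weights, a variance with trend and robust fit, leaving out dim probe sets (mean under 5), centring on the median or on nuclear probe sets, other choices of probe set, replicates 1 and 2 only, no sugar factor, and each array left out. Arrays give no read depth, and their number, 3 per sugar, limits the precision. An exact test of 3 arrays against 3 could not go below p = 0.1 and was not used. All value columns belonged to a sample.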

Additional observations from a re-analysis of the deposited data

Results flagged for a closer look

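Between the treatments with Suc and Glc, each set against the same Xyl arrays, 4 plastid genes differed at p under 0.002 in limma without a block, and so were marked for a closer look. The log2 difference of Suc from Glc was −2.44 for *rps7*, −1.66 for *ycf3*, −0.79 for *cemA* and −0.62 for *rpoC2*. In each of the 4 genes the 3 Suc arrays lay below the 3 Glc arrays and Suc was lower in all 3 replicates. The genes were picked by p on these same arrays, so neither adds support. Suc arrays below all Glc arrays were found in 22 of the 32 genes and 3.18% of all probe sets. The adjusted p was 0.9999 in that fit, and with the replicate number as a block it was 0.123 for *rps7* and *ycf3* and 0.155 for *cemA* and *rpoC2*. *cemA* and *rpoC2* are dim, with means under 5, and a filter on the mean left 2 of the 4 calls. Neither of them passed by the methods' t-test, in a fit of the 6 arrays compared or with replicates 1 and 2 alone, and *cemA* did not pass on linear values, nor *rpoC2* with a trended and robust variance. *rps7* did not pass with replicates 1 and 2 alone, without Glc replicate 1 or 3, or without any 1 of the Suc arrays. *ycf3* passed in each alternative run. Without Suc replicate 2, Suc replicate 3 or Glc replicate 3 it was the 1 gene called, so *cemA* and *rpoC2* did not pass there either. *rps7* is measured by a probe set that matches 2 gene entries.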

How the results depend on the processing

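The block of replicate numbers raised the count of called genes to 8 for Suc against Xyl and 10 for Suc against Glc, from 2 and 4 without it, and it changed no other count of calls between sugars. A fit of the 6 arrays compared gave 8 and 10 too, but shared only 4 and 7 genes with the block: for Suc against Xyl it called *rps12*, *rpl14*, *rpl16* and *rpoC1* in place of *rpl20*, *rpoC2*, *ycf1* and *cemA*, and for Suc against Glc *matK*, *rpl20* and *rpoC1* in place of *rps2*, *rpoC2* and *cemA*. A random replicate block and array weights each gave 4 and 8. Among the alternatives, the share of all probe sets was counted for the block only. The counts of the others therefore do not show that the members stand out. For Suc against Xyl, the methods' t-test gave 7 (4 of them shared with the block), limma on linear values 0, probe sets specific to 1 gene 1 and replicates 1 and 2 alone 4. A filter on dim probe sets left 2 for Suc against Glc. The methods' t-test gave 1 for Fru against Glc, and replicates 1 and 2 alone gave 1 for Suc against Fru. For replicate 3 against replicates 1 and 2, the count of 4 became 2 with no sugar factor and 1 with probe sets specific to 1 gene. The causes were not tested, save for genes left out by construction. The choice of specific probe sets excludes *rps7*, and for replicate 3 also the called genes *rpl23*, *rpl2* and *ycf1*. The filter excludes *cemA* and *rpoC2*. With each array left out in turn, the counts ran from 0 to 7 for Suc against Xyl, 1 to 10 for Suc against Glc, 0 to 3 for Fru against Xyl, 0 to 6 for Fru against Glc, 0 to 1 for Glc against Xyl, 0 to 1 for Suc against Fru, 2 to 10 for replicate 3 against replicates 1 and 2 and 0 to 1 for replicate 1 against replicate 2. Median changes ran from −0.69 to −0.57 for Suc against Xyl, −0.59 to −0.25 for Fru against Xyl and −0.03 to 0.12 for Glc against Xyl, and median differences from −0.34 to 0.15 for replicate 3 against replicates 1 and 2 and −0.07 to 0.21 for replicate 1 against replicate 2. No member had an adjusted p under 0.05 between sugars in any of these fits, where at an unadjusted p under 0.05 the limma fit without the block held 15 for Suc against Xyl and 18 for Suc against Glc. In that fit 0 of all 22746 probe sets had an adjusted p under 0.05 in any comparison between sugars.

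Among the members given array by array, the sign turned for these. *rps18* with Suc against Xyl was 0.0236 with arrays centred on their medians and ran from −0.0996 to 0.0498 as each array was left out. *rpl32* with Glc against Xyl was 0.0674 in replicates 1 and 2 alone and ran from −0.396 to 0.00949 with each array left out, above 0 without Xyl replicate 3. *ycf4* with Fru against Xyl ran from −0.062 to 0.124, below 0 without Fru replicate 2 (−0.062) or Xyl replicate 1 (−0.00379). For replicate 1 against replicate 2, *rpoC1* ran from −0.515 to 0.0441, *matK* from −0.455 to 0.00399 and *rpl16* from −0.542 to 0.222, the highest value of each being that without Fru replicate 2, and *rpl16* was also above 0 without Glc replicate 1 (0.0129). Dim probe sets and 3 arrays per sugar limit what can be told, and values of 1 h and 1 mM say nothing of other times or doses.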

Other observations

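The second probe set that the annotation names for *rps12*, left out above for its lower mean of 3.85, stood at 3.45, 4.06 and 3.25 with Fru, 4.41, 4.14 and 4.79 with Glc and 3.23, 3.05 and 3.21 with Suc, against 4.31, 3.56 and 4.72 with Xyl. The Suc arrays lay below the Xyl arrays here too. Its mean differed from Xyl by −0.61 with Fru, 0.25 with Glc and −1.03 with Suc.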
